A study of Mus musculus with 12 samples.

Results

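The genes described here handle glucose carbon: glycolysis, lactate production and export, the kinases that close pyruvate dehydrogenase, glycogen turnover and the pentose phosphate route. They were chosen by symbol, 34 genes in all, and these matched 35 of the 21899 rows of the deposited gene table, because Aldoa has 2 rows. RNA came from colon tissue of 12 mice, and every mouse, controls included, had received 2.5% dextran sulfate sodium (DSS), a chemical that damages the colon epithelium, for 7 days. In 6 mice Pck1, the cytosolic enzyme that makes phosphoenolpyruvate for gluconeogenesis, was deleted in intestinal epithelial cells (labelled CKO), and the other 6 were littermates labelled WT. The labels give neither the driver of the deletion nor age, strain or sex, and no group without DSS was compared. Total counts ran from 15348192 to 18211663 per knockout library and from 15881625 to 19138507 per control library, and the members held between 0.851% and 1.36% of a library. Pck1 itself fell, from 34.5 to 84.7 CPM in the controls to between 2.28 and 7.32 CPM in the knockouts (log2 fold change -3.66 ± 0.32, SE; edgeR adjusted p = 0.000391). CPM here is a gene's count relative to its library's size, scaled between libraries, and does not correct for gene length.

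Glycolysis splits glucose into pyruvate, and its flow is set largely at glucose uptake, hexokinase and phosphofructokinase. Pyruvate is either reduced to lactate and exported or passed to mitochondria through pyruvate dehydrogenase, which the Pdk kinases switch off. Colonocytes mainly burn butyrate, while activated neutrophils and macrophages depend strongly on glycolysis. Phosphoenolpyruvate, the product of Pck1, is also an intermediate of lower glycolysis.

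No member passed the test across all genes. Of the 35 rows, 34 had enough counts to be tested (1 per symbol), and 0 were called higher and 0 lower at an adjusted p under 0.05 by the edgeR quasi-likelihood F test (Benjamini-Hochberg). Over all 14393 tested genes, 0.0278% were called higher and likewise 0.0278% lower. The second Aldoa row (ENSMUSG00000114515), with 1 to 7 counts per library, was not tested. At an unadjusted p under 0.05, 14 members were higher and 1 was lower, where all tested genes gave 13.1% higher and 9.48% lower. Of the 34 members, 25 had a log2 fold change above 0, against 45.1% of all tested genes, and the members' median was 0.14 against -0.03. The smallest adjusted p among them was 0.0531. In no member did the groups separate fully, while 0.882% of all tested genes had every knockout above every control and 0.639% the reverse. DESeq2, run on the same counts, called 9 members higher and 1 lower, against 7.66% and 2.98% of all genes: Slc2a1, Hk3, Pfkp, Pfkfb3, Gapdh, Pgk1, Eno1, Pkm and Slc16a3 higher, and Pfkfb4 lower.

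**Figure D1:**
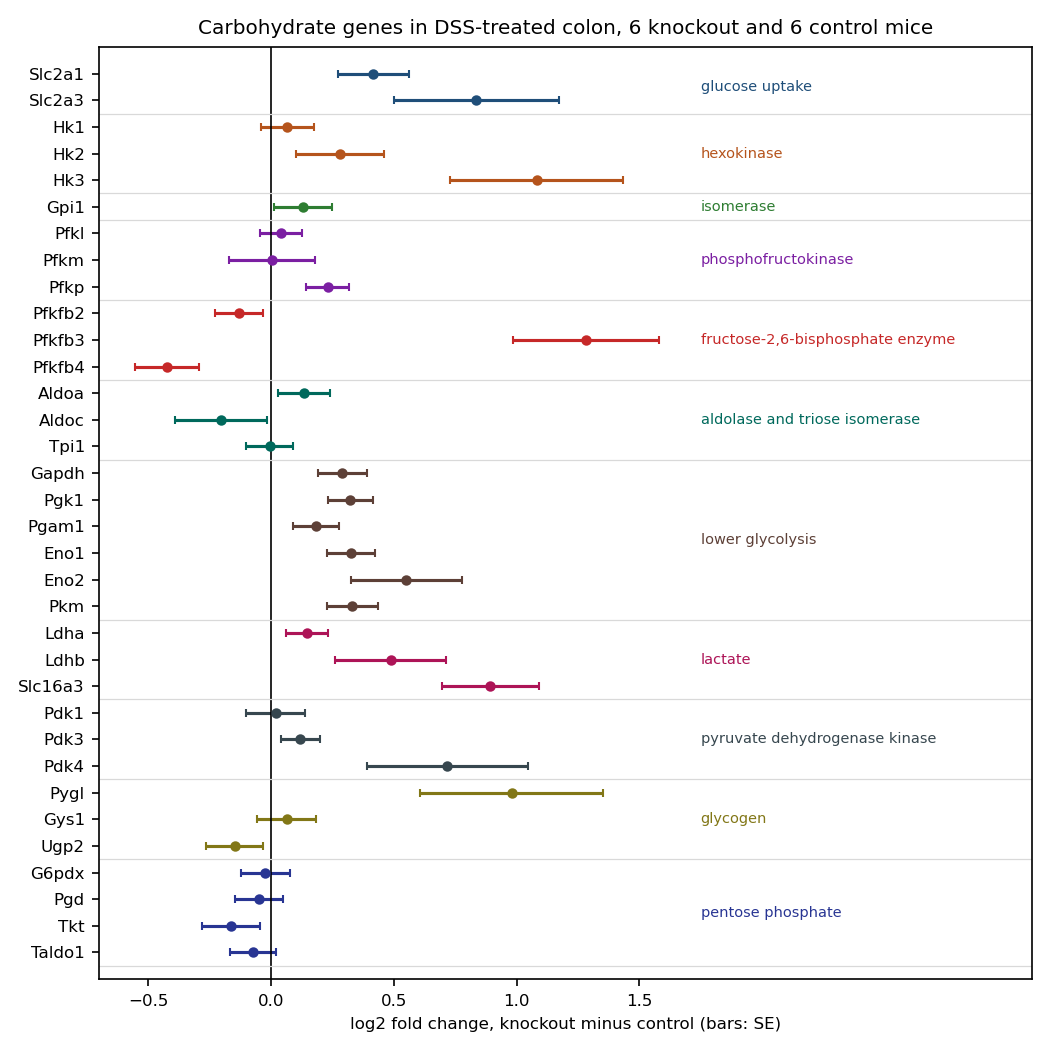
Log2 fold change (x axis, knockout minus control, bars ± SE) of the 34 tested members, 6 mice per genotype, with genes on the y axis grouped by role. Pfkfb3 stood highest at 1.28 and Pfkfb4 lowest at -0.42, both in one enzyme family, and the 4 pentose phosphate genes lay just below 0 (G6pdx and Pgd above 0 on the TPM scale).

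Calls turned on single libraries. Without knockout replicate 4, edgeR called 5 members higher (Pfkfb3, Slc16a3, Pgk1, Hk3 and Pfkp) and 0 lower, against 6.02% and 2.78% of all genes. Without control replicate 4 it called 3 higher (Pfkfb3, Slc16a3 and Hk3), against 5.03% (and 1.93% lower) of all genes, and without control replicate 6 only Slc16a3, against 1.88% (and 0.699% lower). Leaving out any other single library gave 0 calls among the members. Without both libraries numbered 4, 5 members were called higher (Pfkfb3, Slc16a3, Hk3, Pygl and Slc2a3), against 8.40% (and 4.88% lower) of all genes. Knockout replicate 2 stood at the other end: it had the highest level of all 12 libraries for 20 of 34 members, and the highest of the knockouts for 26. Without it the members' median was 0.10 and 21 were above 0.

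The promoters of Slc16a3, Pfkfb3, Pgk1 and Pfkfb4 are shown because the first 3 had the smallest p on the higher side and Pfkfb4 the smallest on the lower side. The sequences are RefSeq's on GRCm38.p6, each 250 bases before to 50 after a transcription start, 5′ to 3′ on the gene's strand. Capitals mark ACGTG and GCGTG, searched on both strands; these cores are bound by hypoxia-inducible factors, known regulators of glycolytic genes, and the first of them lies within the E-box CACGTG.
Slc16a3, chr11:120948817-120949116, plus strand: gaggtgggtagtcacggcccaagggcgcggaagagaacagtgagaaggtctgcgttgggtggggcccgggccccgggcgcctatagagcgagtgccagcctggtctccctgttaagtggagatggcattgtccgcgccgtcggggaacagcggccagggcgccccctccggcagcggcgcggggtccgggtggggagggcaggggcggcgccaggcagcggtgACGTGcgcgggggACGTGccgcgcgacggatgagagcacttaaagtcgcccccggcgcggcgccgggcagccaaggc
Pfkfb3, chr2:11553880-11554179, minus strand: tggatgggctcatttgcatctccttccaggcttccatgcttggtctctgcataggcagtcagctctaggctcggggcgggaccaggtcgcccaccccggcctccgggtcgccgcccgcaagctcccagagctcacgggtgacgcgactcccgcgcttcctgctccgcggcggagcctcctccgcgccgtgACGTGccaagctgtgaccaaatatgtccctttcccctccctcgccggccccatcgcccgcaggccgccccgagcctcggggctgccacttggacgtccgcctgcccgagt
Pgk1, chrX:106186850-106187149, plus strand: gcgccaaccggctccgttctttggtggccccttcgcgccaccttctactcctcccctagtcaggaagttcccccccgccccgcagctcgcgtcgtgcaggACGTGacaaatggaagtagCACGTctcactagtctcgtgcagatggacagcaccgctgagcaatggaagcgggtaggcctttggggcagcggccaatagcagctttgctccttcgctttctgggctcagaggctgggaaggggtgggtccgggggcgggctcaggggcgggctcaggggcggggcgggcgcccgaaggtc
Pfkfb4, chr9:108991652-108991951, plus strand: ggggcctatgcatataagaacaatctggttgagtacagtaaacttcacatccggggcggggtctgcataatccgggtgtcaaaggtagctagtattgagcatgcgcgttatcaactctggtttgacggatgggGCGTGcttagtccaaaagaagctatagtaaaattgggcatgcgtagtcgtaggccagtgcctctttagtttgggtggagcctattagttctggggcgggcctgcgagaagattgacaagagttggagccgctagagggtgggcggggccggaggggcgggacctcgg
Slc16a3 and Pgk1 each held 2 cores in this window, Pfkfb3 and Pfkfb4 1 each. None of the 4 windows held CACGTG. Pfkfb3 has 2 listed starts, of which the most upstream is shown; the other window held 4 cores and 1 CACGTG. Of the 34 members 33 matched the table, all but Slc2a3, with 50 windows, some of which overlap. A core was found in 39 of these windows (78%) and in 43.8% of all 32851 windows of the same length, whose median GC content was 52.7% against 60.7% in the members' windows. The E-box was found in 4 of 50 (8%) and in 7.15%. The windows of members that lay above 0 and of those below 0 both held cores, and a match is a description, not a binding site.

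Marker lists of other cell types are given beside these counts, because in whole tissue fewer cells of a type and less RNA per cell cannot be told apart. Neutrophil markers were above 0 in 9 of 9 tested genes (10 listed), with a summed level of 270.3 to 1340.5 CPM in the knockout and 137 to 598 in the control. Macrophage markers were above 0 in 9 of 9 (1132 to 2095 against 811 to 1400.4 CPM) and fibroblast markers in 7 of 7 (4097 to 9818 against 2513 to 5067 CPM). Epithelial markers were above 0 in 1 of 10 (10710.0 to 12890.0 against 11316 to 15963 CPM). Endothelial markers were above 0 in 5 of 5 (295 to 609.7 against 206 to 312 CPM) and smooth muscle markers in 0 of 6 (1754 to 2869 against 1795 to 4121 CPM). No marker on these 6 lists was at 0 in every library, none was called, and the groups overlapped on each list. Exocrine pancreas markers reached 28086 CPM in control replicate 6, where the other libraries held 39.6 to 3762 CPM. The part of these cell types in the results that follow was not tested.

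Among glucose transporters, Slc2a1 (GLUT1), the common basal transporter, was by far the more abundant, with 94.5% to 97.8% of the pair's TPM in every library (TPM is counts per length and depth, as deposited). Slc2a1 ran from 153 to 304 CPM in the knockout (median 238) and from 158 to 192 CPM in the control (median 181). The knockouts spread far more than the controls: 5 of 6 lay above every control and replicate 6 lay below all of them. The log2 fold change was 0.42 ± 0.14 (SE; edgeR adjusted p = 0.111). Slc2a3 (GLUT3), a high-affinity transporter of neurons and leukocytes, ran from 6.03 to 20.6 CPM in the knockout (median 9.55) and from 4.01 to 10.02 CPM in the control (median 5.08). Its log2 fold change was 0.84 ± 0.34 (edgeR adjusted p = 0.162), and 3 knockouts lay above all controls.

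Hexokinases trap glucose in the cell by phosphorylating it. By TPM, Hk2, the inducible form, held a mean of 53.9% ± 6.14 of the Hk1, Hk2 and Hk3 total in the knockout and 51.7% ± 4.47 in the control (SD, n = 6 each). Hk1, the housekeeping form, held 42.2% ± 6.01 and 46.1% ± 5.40. The order of these 2 enzymes within a library was not constant, since the Hk2 to Hk1 TPM ratio ran from 0.857 to 1.62 in the knockout and from 0.906 to 1.55 in the control. Hk3, known mainly from myeloid cells, was minor at 3.88% ± 1.55 and 2.15% ± 0.965 (SD, n = 6 each). It nevertheless had the largest fold change of the 3: 7.01 to 23.0 CPM in the knockout (median 14.2) against 3.65 to 13.9 CPM in the control (median 6.04), a log2 fold change of 1.08 ± 0.35 (edgeR adjusted p = 0.0949). Control replicate 4, at 13.9 CPM, exceeded 3 knockouts, and the same library had the highest neutrophil and macrophage marker sums of the controls. Among the knockouts the orders of Hk3 and of the neutrophil sum differed: replicate 3 had the highest neutrophil marker sum (1340.5 CPM) with Hk3 at 9.70 CPM. Replicate 6 had a neutrophil sum of 313 CPM with Hk3 at 17.9 CPM, while replicate 2, with 1275 CPM, had the highest Hk3. Macrophage sums of the knockouts were closer to the Hk3 order. They were highest in replicates 2 and 6 (2095 and 1650 CPM) and lowest in replicate 4 (1132 CPM), which had the lowest Hk3. Replicate 3 exceeded replicate 5 in this sum (1416 against 1332 CPM) but not in Hk3 (9.70 against 10.4 CPM). The part of either list in Hk3 was not tested. For Hk2 and Hk1 the log2 fold changes were 0.28 ± 0.18 and 0.07 ± 0.11 (edgeR adjusted p = 0.385 and 0.769). The log2 ratio of Hk3 to Hk1 was 1.02 higher in the knockout (exact two-sided permutation p = 0.0346, adjusted 0.111 over the 16 isoform pairs compared) and that of Hk3 to Hk2 was 0.84 higher (exact permutation p = 0.0281, adjusted 0.111), so neither difference passed. Without control replicate 4 both passed (exact permutation).

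Gpi1, which isomerises glucose phosphate to fructose phosphate, ran from 461 to 705 CPM in the knockout and from 463 to 568 CPM in the control (log2 fold change 0.13 ± 0.12; edgeR adjusted p = 0.566). Phosphofructokinase, the committed step of glycolysis, is a tetramer of liver (Pfkl), muscle (Pfkm) and platelet (Pfkp) type subunits. Pfkp held 57.8% ± 2.11 of the family's TPM in the knockout and 54.9% ± 1.99 in the control, Pfkl held 39.4% ± 1.60 and 42.0% ± 2.04, and Pfkm held 2.77% ± 0.655 and 3.06% ± 0.483 (SD, n = 6 each). Pfkp exceeded Pfkl in TPM in all 12 libraries. In CPM, Pfkp ran from 199 to 269 in the knockout (median 249) and from 196 to 232 in the control (median 204), with 4 knockouts above all controls. Its log2 fold change was 0.23 ± 0.09 (edgeR adjusted p = 0.143), beside 0.04 ± 0.09 for Pfkl (0.827) and 0.00 ± 0.17 for Pfkm (0.996). The Pfkp to Pfkl log2 ratio was 0.18 higher in the knockout (exact permutation p = 0.0519, adjusted 0.139), which did not pass. It passed without knockout replicate 4 (exact permutation, adjusted p = 0.0462).

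Both isoform ratios that passed their test lay in the Pfkfb family, whose bifunctional enzymes make and remove the fructose bisphosphate that activates phosphofructokinase. Pfkfb3 (ENSMUSG00000026773), the form with the strongest kinase activity and a driver of glycolysis, ran from 44.3 to 136 CPM in the knockout (median 97.0) and from 23.0 to 65.5 CPM in the control (median 35.9). Each of the 6 knockouts lay above the control median and 4 lay above every control. Knockout replicates 1, 2 and 3 were high (113, 136 and 131 CPM) and replicate 4 was low (44.3 CPM), below control replicates 4 and 6. The fold change was 2.43, or 1.28 ± 0.30 on the log2 scale (edgeR adjusted p = 0.0540). Replicates 1, 2 and 3 also had the highest neutrophil marker sums of the knockouts (674 to 1340.5 CPM, against 270.3 to 313 CPM in replicates 4, 5 and 6), and control replicate 4, the highest control for Pfkfb3, had the highest of the controls at 598 CPM. The same 3 knockouts had the highest fibroblast marker sums (5554 to 9818 CPM, against 4097 to 5130 CPM). They were also highest for enteric neuron and glia markers (115 to 158 CPM, against 72.3 to 106 CPM). On these 2 lists control replicate 6 was the highest control. Other lists ranked the knockouts differently. The macrophage sum was higher in knockout replicate 6 (1650 CPM) than in replicates 1 and 3 (1482 and 1416 CPM). The endothelial sum was about equal in knockout replicates 5 and 1 (364 and 363 CPM).

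Pfkfb4 (ENSMUSG00000025648) stood on the other side of 0. It ran from 15.2 to 23.0 CPM in the knockout (median 15.7) and from 19.99 to 28.6 CPM in the control (median 23.6). All 6 knockouts lay below the control median, and 4 of them lay within 15.2 and 15.9 CPM, while replicates 2 and 3 (19.8 and 23.0 CPM) came near to or within the control range. The log2 fold change was -0.42 ± 0.13 (edgeR adjusted p = 0.0815). Pfkfb2, the heart form, ran from 16.2 to 21.7 CPM in the knockout and from 19.1 to 23.2 CPM in the control (log2 fold change -0.13 ± 0.10; edgeR adjusted p = 0.461).

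In these 12 libraries the make-up of the 3 genes therefore differed between genotypes, within the limits given at the end of this paragraph. Pfkfb3 held 46.3% to 73.5% of the 3 genes' TPM in the knockout (median 62.3%) and 24.6% to 50.3% in the control (median 36.2%). Pfkfb4 held 12.02% to 21.1% in the knockout (median 14.8%) and 22.6% to 38.1% in the control (median 29.6%), with no overlap. The log2 CPM ratio of Pfkfb3 to Pfkfb4 rose by 1.68, from 0.66 ± 0.63 to 2.35 ± 0.51 (SD, n = 6 each), with an exact permutation p of 0.00216, the smallest this design can give, and an adjusted p of 0.0346 over the 16 pairs. Every knockout lay above every control, though narrowly: the lowest knockout ratio, in replicate 4, was 1.52 and the highest control ratio 1.48, and in TPM ratios they overlapped (2.19 against 2.22). The ratio of Pfkfb3 to Pfkfb2 rose by 1.39 (exact permutation p = 0.00433, adjusted 0.0346), with 5 of 6 knockouts above every control. Pfkfb4 to Pfkfb2 fell short of the threshold, with a difference of -0.30 (exact permutation p = 0.0996, adjusted 0.228). A ratio within a library does not depend on scaling between libraries. These pairs were drawn up with earlier results known, and leaving out 1 library ended both calls in 10 of 12 cases (exact permutation, adjusted p from 0.0519 to 0.0866), the exceptions being knockout replicate 4 and control replicate 4.

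**Figure D2:**
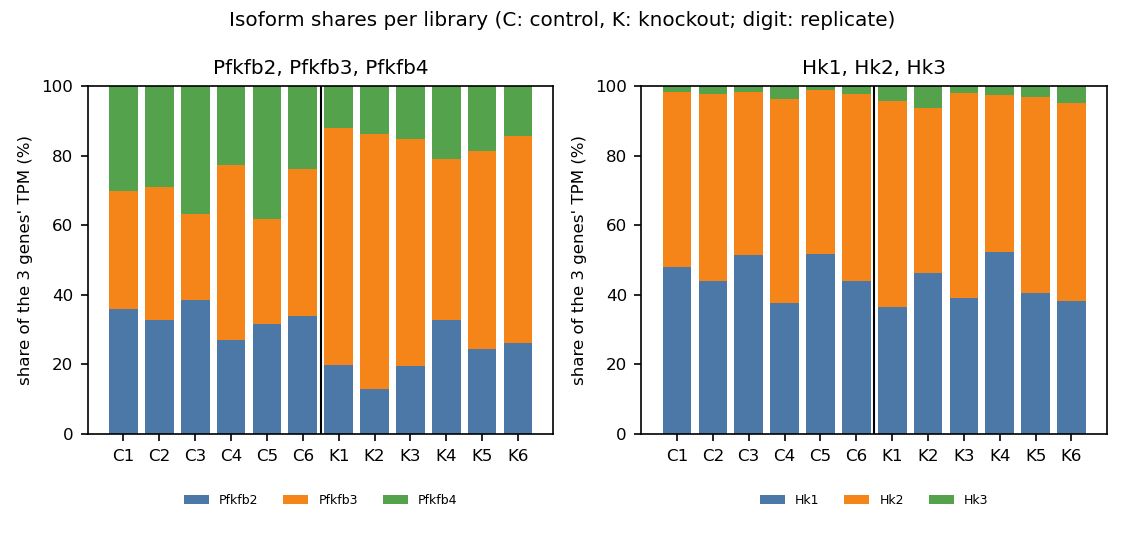
Share (y axis, %) of each isoform in the summed TPM of its family, 1 bar per library (x axis: C control, K knockout, digit replicate). Pfkfb3 held 46.3% or more in every knockout and 50.3% or less in every control, while Hk3 reached at most 6.27%.

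In lower glycolysis every member had a log2 fold change above 0. Of the 6 genes, 5 had an unadjusted p under 0.05, against 13.1% of all tested genes on the higher side, and 0 passed over all genes. Pgk1 (ENSMUSG00000062070), phosphoglycerate kinase, which makes the first ATP of the pathway, ran from 493 to 602 CPM in the knockout (median 525) and from 380.3 to 495 CPM in the control (median 429). Only knockout replicate 6 fell below the highest control, and only just. The log2 fold change was 0.32 ± 0.09 (edgeR adjusted p = 0.0685). Eno1, the main enolase, which makes phosphoenolpyruvate, ran from 655 to 903 CPM (median 688) against 532 to 665 CPM (median 556), and Pkm, the pyruvate kinase that consumes phosphoenolpyruvate, from 1026 to 1528 CPM (median 1139) against 856 to 1064 CPM (median 939.7). The log2 fold changes were 0.33 ± 0.10 for Eno1 and 0.33 ± 0.10 for Pkm (edgeR adjusted p = 0.0814 and 0.0836). In both genes all 6 knockouts lay above the control median, and knockout replicate 2 was the highest library.

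Gapdh, glyceraldehyde phosphate dehydrogenase, was the most abundant member, at 2986 ± 442 TPM in the knockout and 2355 ± 296 TPM in the control (SD, n = 6). In CPM it ran from 1891 to 2748 (median 2213) against 1606 to 2127 (median 1808), with 4 knockouts above all controls and an edgeR adjusted p of 0.114. It is a common reference gene for PCR, and its mean was 1.22-fold higher in the knockout here. Pgam1, a phosphoglycerate mutase, stood at 0.18 ± 0.10 (log2 fold change; edgeR adjusted p = 0.276). Eno2, the neuronal enolase, stood at 0.55 ± 0.23 (edgeR adjusted p = 0.169) and made up at most 1.43% of the TPM of Eno1 and Eno2 together. Enteric neuron and glia markers were above 0 in 7 of 8 genes (summed level 72.3 to 158 CPM against 48.6 to 87.7 CPM, none at 0 in every library), and their part in the Eno2 value was not tested.

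Between these steps, aldolase and triose phosphate isomerase had values near 0. Aldoa, the main aldolase (98.1% or more of the TPM of Aldoa and Aldoc together in every library), ran from 756 to 1066 CPM in the knockout and from 677 to 908 CPM in the control, a log2 fold change of 0.13 ± 0.11. Aldoc, the brain form, stood at -0.20 ± 0.19, and Tpi1, whose direction flips with other scalings, at -0.01 ± 0.10 (edgeR adjusted p = 0.498, 0.571 and 0.978). The Aldoc to Aldoa log2 ratio was 0.35 lower in the knockout (difference -0.35; exact permutation p = 0.0195, adjusted 0.104) and passed without control replicate 4.

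The lactate genes comprise an exporter and the dehydrogenase subunits. Slc16a3 (MCT4, ENSMUSG00000025161), the low-affinity transporter by which glycolytic cells release lactate, ran from 34.1 to 77.0 CPM in the knockout (median 49.5) and from 21.0 to 35.0 CPM in the control (median 27.0). Knockout replicate 5 alone lay below the highest control, replicate 4, while the other 5 lay above it. The fold change was 1.86, or 0.89 ± 0.20 on the log2 scale, with the smallest edgeR adjusted p of the members, 0.0531. Over single libraries left out, its log2 fold change ran from 0.74 to 0.98. Ldha, which turns pyruvate into lactate, ran from 1199 to 1469 CPM (median 1267) against 1081 to 1350.1 CPM (median 1155), a log2 fold change of 0.15 ± 0.09 (edgeR adjusted p = 0.337). All 6 knockouts lay above the control median of Ldha, but 4 lay within the control range. Ldhb, the heart subunit that favours the reverse reaction, held at most 1.67% of the TPM of Ldha and Ldhb and stood at 0.49 ± 0.23 (edgeR adjusted p = 0.221).

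**Figure D3:**
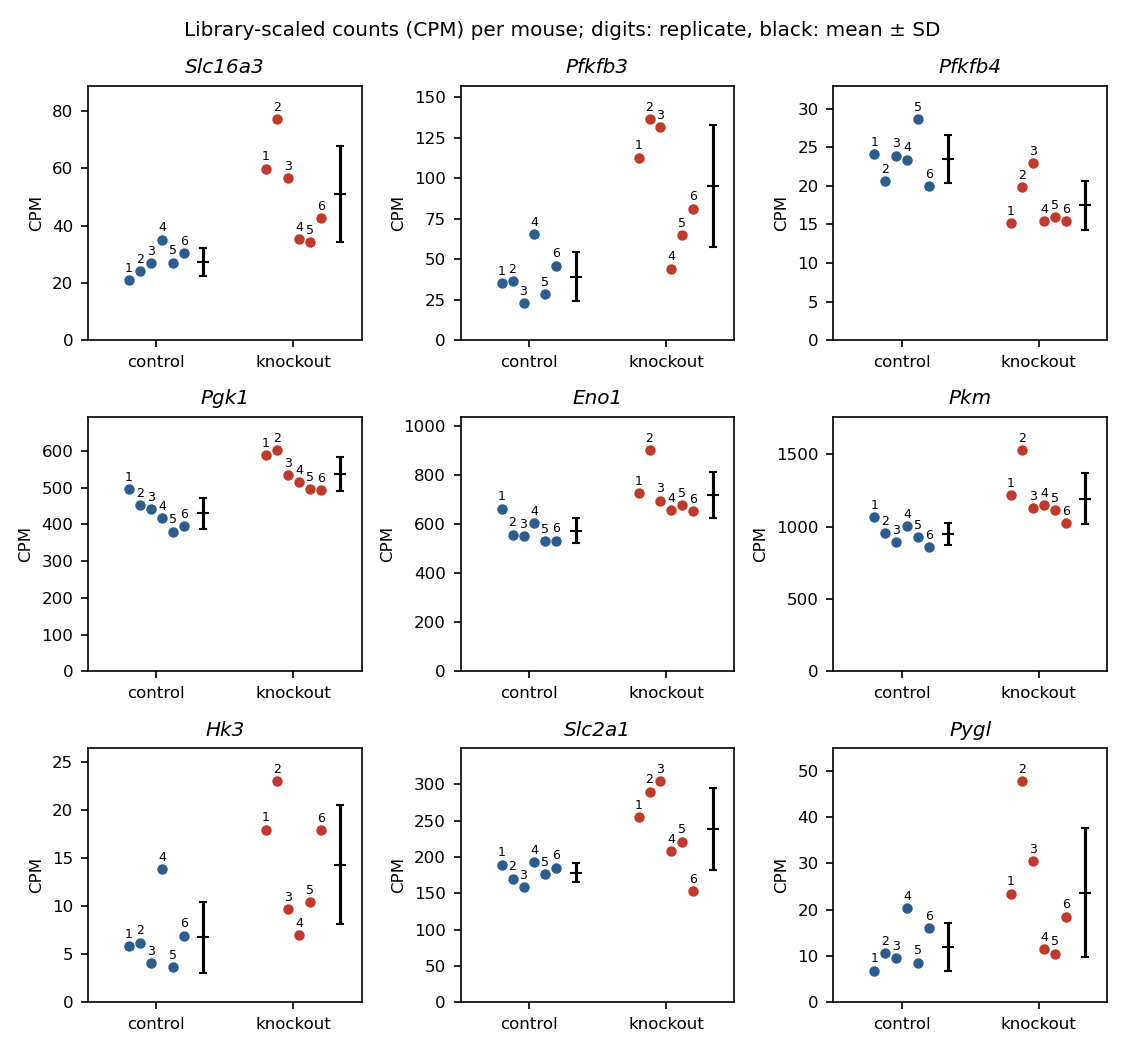
Library-scaled counts (y axis, CPM) of 9 members in each mouse (x axis: genotype), with the replicate number beside each point and the mean ± SD in black (n = 6 per group). In Pfkfb3 and Slc16a3, knockout replicates 1, 2 and 3 stand above all controls, and knockout replicate 4 is the lowest knockout in Pfkfb3 (44.3 CPM).

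Pyruvate dehydrogenase kinases divert pyruvate from oxidation. Pdk1 and Pdk3 were the more abundant forms here, at 32.4 ± 5.30 and 32.2 ± 4.68 TPM in the knockout and 30.8 ± 3.29 and 28.3 ± 1.96 TPM in the control (SD, n = 6). Pdk4, the form induced by fasting and glucocorticoids, was lower, at 8.99 ± 4.26 and 5.37 ± 1.45 TPM. Pdk4 ran from 7.59 to 34.2 CPM in the knockout (median 15.7) and from 6.82 to 13.3 CPM in the control (median 10.1). The 4 highest libraries were all knockouts and 2 knockouts lay below the control median. Its log2 fold change was 0.72 ± 0.33 (edgeR adjusted p = 0.213), beside 0.02 ± 0.12 for Pdk1 and 0.12 ± 0.08 for Pdk3 (edgeR adjusted p = 0.951 and 0.412). None of the 3 Pdk ratios passed; Pdk4 to Pdk1 was 0.58 higher on the log2 scale (exact permutation p = 0.136, adjusted 0.273).

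The 3 glycogen genes lay on both sides of 0. Pygl, the liver-type phosphorylase, also expressed in leukocytes, ran from 10.6 to 47.8 CPM in the knockout (median 21.0) and from 6.84 to 20.4 CPM in the control (median 10.1). The log2 fold change was 0.98 ± 0.37 (edgeR adjusted p = 0.141), with knockout replicates 1, 2 and 3 above every control and control replicate 4 the highest control. Gys1, the glycogen synthase of most tissues, stood at 0.06 ± 0.12, and Ugp2, which makes the UDP-glucose that glycogen and mucin sugars are built from, at -0.15 ± 0.12 (edgeR adjusted p = 0.800 and 0.490).

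The 4 pentose phosphate genes, which supply NADPH and ribose, were all slightly below 0, though G6pdx and Pgd lay above 0 on the TPM scale. G6pdx, the entry enzyme, stood at -0.02 ± 0.10, Pgd at -0.05 ± 0.10, Tkt at -0.16 ± 0.12 and Taldo1 at -0.07 ± 0.09 (log2 fold change, SE; edgeR adjusted p = 0.917, 0.814, 0.442 and 0.686). With library size as the only scaling G6pdx also lay above 0. Tkt ran from 249.7 to 329 CPM in the knockout and from 261 to 413 CPM in the control. Control replicate 1 was the highest of all 12 libraries for Pgd, Tkt and Taldo1.

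**Figure D4:**
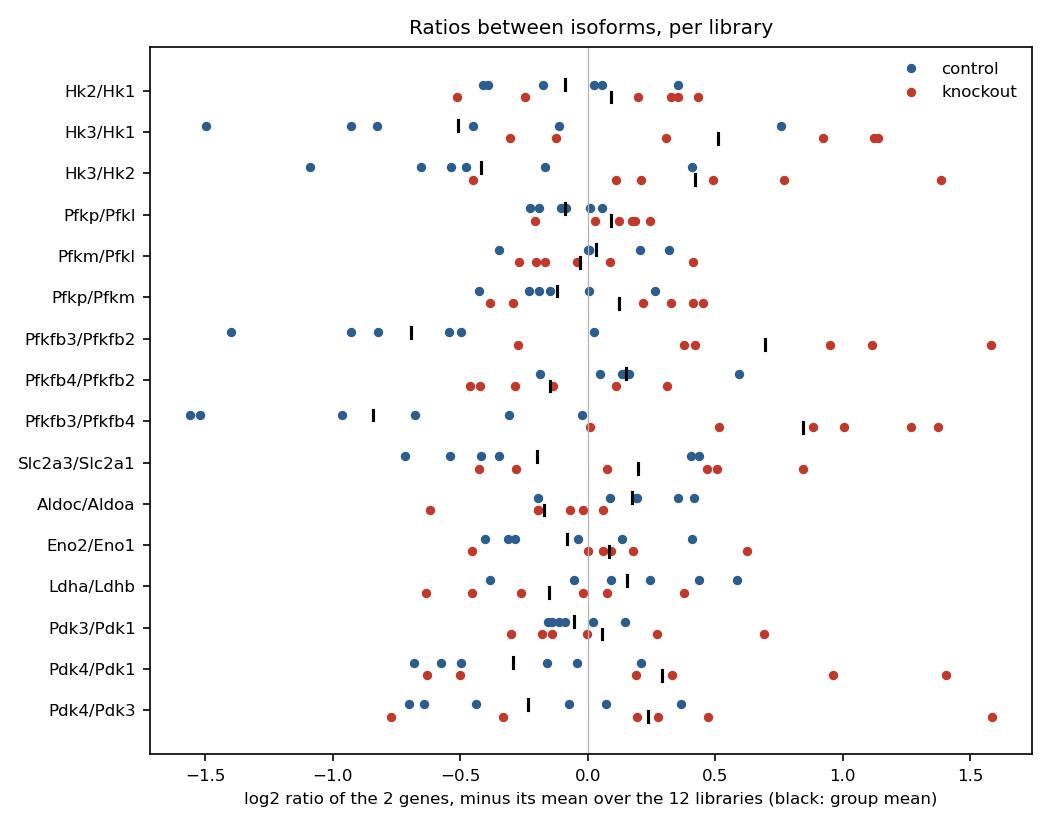
Log2 ratio of 2 isoforms in each library (x axis, after subtracting the pair's mean over the 12 libraries), with 1 row per pair, control points above knockout points and black ticks at group means. Of the 16 pairs, only in Pfkfb3/Pfkfb4 do the points of the 2 genotypes separate fully, with a difference of 1.68.

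A second list of 58 genes of the same pathways, not among the members, was described for comparison. Of these, 49 had enough counts; 0 were called higher and 0 lower, and the median log2 fold change was -0.06, with 17 above 0. At an unadjusted p under 0.05, 6 of the 49 were higher and 11 lower, where all tested genes gave 13.1% and 9.48%. DESeq2 called 3 of them higher and 5 lower, against 7.66% and 2.98% of all genes. The lower side was led by Eno3, the muscle-type enolase, which ran from 3.94 to 19.3 CPM in the knockout (median 6.95) and from 16.9 to 82.1 CPM in the control (median 36.5). Its log2 fold change of -2.30 ± 0.46 was larger than that of any member (edgeR adjusted p = 0.0522), in the opposite direction to Eno1. Skeletal muscle markers stood at 10.7 to 22.4 CPM in the knockout and 11.9 to 19.6 CPM in the control in sum, and only 2 of the 6 had enough counts to be tested. Smooth muscle markers were summed highest in control replicates 5 and 1 (4121 and 3402 CPM), the 2 libraries with the highest Eno3 (82.1 and 60.4 CPM), and lowest of the controls in replicate 4, which also had the lowest control Eno3. Knockout replicate 4 had a higher sum than control replicate 4 (2869 against 1795 CPM) but a lower Eno3 (9.51 against 16.9 CPM). Among the knockouts, Eno3 was highest in replicate 5 (sum 1957 CPM) and lowest in replicate 2 (sum 2411 CPM). Epithelial markers, too, were summed highest in control replicates 1 and 5 (15963 and 14153 CPM), and lowest of the controls in replicate 6 (11316 CPM). Among the knockouts the epithelial sum was highest in replicate 3 (12890 CPM), where Eno3 was 4.75 CPM. The part of the muscle and epithelial lists in the Eno3 value was not tested. Pdp2, a phosphatase that reactivates pyruvate dehydrogenase, stood at -0.86 ± 0.24 (edgeR adjusted p = 0.0697).

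On the higher side of that list Emb, embigin, an ancillary protein of monocarboxylate transporters, ran from 24.6 to 73.0 CPM in the knockout (median 48.5) and from 11.3 to 33.5 CPM in the control (median 15.8), a log2 fold change of 1.28 ± 0.32 (edgeR adjusted p = 0.0580). H6pd, which makes NADPH in the endoplasmic reticulum, stood at 0.70 ± 0.21 and Ppp1r3c, a glycogen-targeting phosphatase subunit, at 0.78 ± 0.25 (edgeR adjusted p = 0.0771 and 0.0879). H6pd thus stood above 0 while its cytosolic counterpart G6pdx lay at -0.02. The most abundant listed gene of each role was taken by mean TPM over the 12 libraries: basigin (Bsg), the usual chaperone of Slc16a3, stood at -0.09 ± 0.10, Txnip, a brake on glucose uptake, at 0.28 ± 0.13, Pgm2, close in TPM to Pygb (-0.30 ± 0.13; edgeR adjusted p = 0.208), at -0.16 ± 0.08, and Pklr, the pyruvate kinase of liver and red cells, at -0.27 ± 0.10. Pgls stood at -0.03 ± 0.12, Pdk2 at -0.35 ± 0.20, Adpgk at 0.21 ± 0.14 and Tigar at -0.02 ± 0.11, and the adjusted p of these 8 without Pygb ran from 0.120 to 0.945 in edgeR.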

How the data were processed

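RNA-seq libraries of 12 colons were compared by genotype, with groups taken from the labels. The authors deposited 1 table with raw read counts per gene and library, TPM per library and mean TPM per group; per the file headers it also holds their log2 fold change and p-value per gene. The submitters' processing notes list GRCm38, mm10 and mm39 without roles; aligner, counter and strand setting: not given in the sources used here. Reads could be shared with the members' processed pseudogenes (Gapdh, Pgk1 and Ldha have many) and between the 2 Aldoa rows, so those values are uncertain. The table held 0 columns from outside the series.

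Counts were fitted in R 4.3.3 with edgeR 4.0.16: filterByExpr (minimum count 10, total 15), TMM scaling, quasi-likelihood F test of knockout minus control over 12 libraries, no covariate, Benjamini-Hochberg adjustment over 14393 genes, threshold 0.05. Standard errors were computed as fold change over the root of F. Isoform ratios used log2 CPM (prior count 2) and an exact permutation test over libraries, adjusted over 16 pairs. Alternatives were DESeq2 1.42.0, limma 3.58.1 (voom, TPM), other scalings and filters, a replicate block and left-out libraries. Members, lists and pairs were chosen with earlier results of these data known. All members are reported; of the second list, the 3 smallest p per direction and the most abundant gene per role, except 1 gene that is not reported here. The fit was checked on simulated counts. The smallest chi-square per gene over 66 library combinations was 19.6, so none were alike. The labels number the samples as mice 1 to 6 of each genotype and say no more of their source, so p-values measure the spread between these samples.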

Additional observations from a re-analysis of the deposited data

Results flagged for a closer look

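A single sample stood apart from its group in 2 of the 100 groups of 6 checked (34 genes and 16 ratios in each genotype), by the gap to its nearest neighbour as a share of the group's range. Chance flags about 1 in 20. Pgam1 in control replicate 1 was the highest control, with a gap of 0.778 of the range of log2 CPM. Eno1 in knockout replicate 2 was the highest knockout, with a gap of 0.675 of the range; without that library the log2 fold change of Eno1 was 0.25 and its edgeR adjusted p 0.133.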

How the results depend on the processing

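The edgeR test called 0 members in either direction. With library size as the only scaling it called 2 higher (1.60% of all genes). Other tests called more: edgeR's likelihood ratio test called 3 higher (5.96%), and limma-trend called 3 higher on log2(TPM + 1) and on log2(TPM + 0.1) (2.47% and 2.54%). DESeq2 called 9 higher and 1 lower, against 7.66% and 2.98% of all genes. Limma voom with sample weights also called 9 higher and 1 lower, against 10.8% and 9.30% of all genes. With 1 library left out the count of members called higher ran from 0 to 5, and without both libraries numbered 4 it was 5. The other settings gave 0, limma voom without weights included (11 members higher and 1 lower at an unadjusted p under 0.05). The cause was not tested. The members' median ran from 0.10 to 0.18 over left-out libraries and stayed above 0 under every setting run. Scaling shifted the median of all genes by under 0.1.

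Isoform ratios passed in 2 pairs in both TPM versions as well, in 0 to 5 pairs with 1 library left out, and in 6 without both libraries numbered 4. With a replicate block 0 pairs passed, and its 64 sign arrangements cannot give a p below 0.03125. Pfkfb3 to Pfkfb4 stood at that floor, while Pfkfb3 to Pfkfb2 stood above it at 0.0625 (exact sign-flip test, adjusted p = 0.25 for both). The replicate block in edgeR called 0 members, with 24 above 0 and a median of 0.14. Same-numbered libraries did not deviate together (correlations from -0.50 to 0.08), so the numbers were not treated as pairs.

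Members near 0 changed sign: Tpi1 0.0081 (DESeq2 size factors), 0.034 (library size only), 0.0051 (upper quartile scaling), 0.017 (no low-count filter), 0.0081 (DESeq2), 0.059 (limma-trend on log2(TPM + 1)), 0.059 (limma-trend on log2(TPM + 0.1)); G6pdx 0.019 (library size only), 0.039 (limma-trend on log2(TPM + 1)), 0.040 (limma-trend on log2(TPM + 0.1)); Pfkm -0.010 (limma voom), -0.10 (limma voom with sample weights), -0.022 (replicate block), -0.049 (without both libraries numbered 4); Gpi1 -0.021 (limma voom with sample weights); Gys1 -0.062 (limma voom with sample weights), -0.00021 (without both libraries numbered 4); Pdk1 -0.089 (limma voom with sample weights), -0.039 (without both libraries numbered 4); Pgd 0.020 (limma-trend on log2(TPM + 1)), 0.020 (limma-trend on log2(TPM + 0.1)). Over left-out libraries the log2 values ran: Pdk1 -0.027 to 0.10; Pfkl -0.00058 to 0.10; Gys1 -0.024 to 0.11; Pfkm -0.16 to 0.058; G6pdx -0.090 to 0.025; Tpi1 -0.047 to 0.041; Pgd -0.089 to 0.024; the ratio Pdk3/Pdk1 -0.015 to 0.18. None of these was called.

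Depth was not varied. The members with the lowest maxima, Slc2a3, Hk3, Pfkm, Pfkfb2, Aldoc, Eno2 and Ldhb, reached at most 23.2 CPM. Pdk4 and Pygl were also low in the controls (from 6.82 and 6.84 CPM) but reached 34.2 and 47.8 CPM in the knockout.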

Other observations

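In the authors' deposited table, whose test is not named, 7 members had an adjusted p under 0.05 on the higher side (Hk3, Pfkfb3, Gapdh, Pgk1, Eno1, Pkm and Slc16a3), against 4.65% of all its genes. Pfkfb4 alone passed on the lower side of the authors' deposited table, against 1.70% of all its genes.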
